A study of Mus musculus with 16 samples.

Results

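The genes described here encode 6 factors of the blood stem cell niche in bone, namely Cxcl12, Kitl, Csf1, Il6, Il7 and Il6st. They were chosen by name for this known role and not by their values. All 6 had a row among the 38926 gene rows of the table of metaphyseal and marrow endothelial cells (ECs), the 21603 rows of the Yap1/Taz files and the 38922 rows of the Lats2 table. A niche factor is a secreted or membrane-bound signal that keeps blood stem cells and progenitors in place or alive. In bone marrow these signals are known to come from perivascular stromal cells and from the ECs that line sinusoids and arterioles. Il6st differs from the others in being a receptor, gp130, the signal-transducing chain shared by the interleukin 6 family, through which a cell receives such signals.

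The study asked how gene expression differs between vessel beds of bone and after loss of the Hippo pathway effectors Yap1 and Taz (gene Wwtr1) or of the kinase Lats2 in ECs. The 16 RNA-seq libraries came from FACS-sorted bone ECs of C57BL/6 mice. Metaphyseal ECs (mpECs, 3 libraries) and ECs of the diaphyseal marrow (bmECs, 3 libraries) were wildtype and were sorted, according to the methods, from the Cdh5-mT/nG reporter at the age of 3 weeks. The Yap1/Taz libraries were from animals of postnatal day 21 that all carried Yap1flx/flx and Wwtr1flx/flx, of which 3 were negative for Cdh5CreERT2 (control) and 3 positive (labelled ECKO). Both Lats2 groups carried Lats2flx/flx, with 2 Cdh5CreERT2-negative libraries (control) and 2 positive ones (cKO), and came from 3-week-old mice per the methods. Cdh5CreERT2 is a tamoxifen-inducible Cre driven by the promoter of the EC cadherin, so deletion was aimed at all ECs and not at a niche vessel type. The methods describe tamoxifen given to pups, littermate controls, and a sort of the mutant and control cells with CD31 and Emcn antibodies, in which no step against blood cells is described. They also describe biological triplicates, but the labels do not say whether libraries came from separate animals, and where they did not, p-values measure only technical spread.

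FPKM counts sequenced fragments relative to gene length and library size, so FPKM levels can be compared between genes of a library. The libraries held about 4729881 to 14744189 reads on genes, as recovered from the FPKM steps, and 1 read in a gene of 2000 bases came to between 0.0405 and 0.1326 FPKM. Cdh5, a general EC marker, averaged 180 FPKM in mpECs, 169 in bmECs, 106 and 129 in Yap1/Taz control and ECKO-labelled libraries, and 248 and 276 in Lats2 control and cKO libraries. Blood cell markers were not at 0, and their summed level, led by the hemoglobin gene Hbb-bs and the neutrophil gene S100a8, was 17060 to 34630 FPKM over the mpEC and bmEC libraries, 3105 to 5104 over the Yap1/Taz libraries and 373.9 to 2414 over the Lats2 libraries. Other genes known from blood cells did not all follow this order. Cd79a averaged 74.6 FPKM in mpECs, 59.7 in bmECs, and 52.1 and 39.0 in Yap1/Taz control and ECKO-labelled libraries. Csf1r was at 2.83, 1.86, 49.6 and 36.0 FPKM in the same groups. The sums therefore do not rank the separately normalized tables by blood cell content. Neither targeted gene was called lower in the libraries labelled ECKO. Wwtr1 was between 9.88 and 10.3 FPKM in the 3 control libraries and between 15.3 and 19.65 FPKM in the 3 libraries labelled ECKO (log2 fold change 0.78, adjusted p = 0.0272), and Yap1 did not pass the test (-0.04, adjusted p = 0.934). Other genes did separate these groups, among them Vegfa, with a mean of 52.8 FPKM in ECKO-labelled and 21.7 FPKM in control libraries (1.26, adjusted p = 0.0235). Lats2 was 23.4 and 24.0 FPKM in control against 19.2 and 19.2 in cKO libraries (-0.29, adjusted p = 0.125), and Wwtr1 was higher in cKO libraries (0.63, adjusted p = 0.0257). Of tested hypoxia target genes, 4 of 7 were higher in bmECs, 1 of 10 in ECKO-labelled libraries and 5 of 9 (with 1 lower) in Lats2 cKO libraries. Of tested Yap1/Taz target genes, 2 of 8 were higher and 1 lower in bmECs, and 5 of 9 were higher and 1 lower in Lats2 cKO libraries. In ECKO-labelled libraries 0 of 5 were called by limma or limma-voom (1 at an unadjusted p under 0.05). Only 8 of the 10 listed Yap1/Taz targets were matched by symbol in that comparison. Ctgf and Cyr61 were not matched and so are not among the 5 tested. Gene values sum over all exons, and the deleted exons are not given in the sources used here.

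The genes lie on 5 chromosomes of GRCm38. Cxcl12 spans chr6:117168535-117181367 and Kitl chr10:100015630-100100416, both on the plus strand. Il6 is at chr5:30013114-30019981 and Il6st at chr13:112464070-112510086 on the plus strand. Csf1 at chr3:107741048-107760469 and Il7 at chr3:7569994-7613760 share a chromosome and lie on its minus strand. For 5 of the 6, no exon base overlapped another gene, and for Il7 1.9% of exon bases overlapped a gene of the other strand. The RefSeq promoter table (GRCm38.p6) matched 5 genes, Cxcl12, Kitl, Csf1, Il6 and Il6st. The 250 bases before the RefSeq start of the 3 genes that passed the test in at least 1 comparison are shown 5′ to 3′ in the direction of the gene, with each CG dinucleotide in capitals, since the density of CG is what sets these promoters apart from that of Il6.

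Il6st, chr13:112463820-112464069: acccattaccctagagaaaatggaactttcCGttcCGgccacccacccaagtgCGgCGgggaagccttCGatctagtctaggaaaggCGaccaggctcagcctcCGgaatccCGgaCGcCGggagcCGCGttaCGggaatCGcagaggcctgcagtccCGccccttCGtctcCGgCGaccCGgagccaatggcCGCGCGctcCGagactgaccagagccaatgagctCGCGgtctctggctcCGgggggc

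Kitl, chr10:100015571-100015820: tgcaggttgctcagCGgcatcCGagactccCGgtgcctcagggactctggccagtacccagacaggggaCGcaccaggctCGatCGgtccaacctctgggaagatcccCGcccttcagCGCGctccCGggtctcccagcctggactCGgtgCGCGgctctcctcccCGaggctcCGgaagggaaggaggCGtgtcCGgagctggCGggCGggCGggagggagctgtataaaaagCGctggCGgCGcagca

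Cxcl12, chr6:117168285-117168534: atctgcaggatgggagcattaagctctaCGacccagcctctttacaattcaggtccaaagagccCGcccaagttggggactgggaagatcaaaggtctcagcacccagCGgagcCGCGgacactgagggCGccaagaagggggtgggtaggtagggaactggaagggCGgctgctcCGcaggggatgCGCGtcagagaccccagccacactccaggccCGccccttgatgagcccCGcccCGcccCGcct

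The Il6st stretch held 26 CG dinucleotides, the Kitl stretch 23 and the Cxcl12 stretch 14, against a median of 6 over 32817 promoter windows. Csf1 had 10. The Il6 promoter was poor in CG, with 3. The letters ACGTG, the core of the hypoxia response element (reverse strand CACGT), and GGAATG, a core of TEAD sites through which Yap1 and Taz act (reverse strand CATTCC), were searched on both strands of the windows from 250 bases before to 50 bases after the start. Neither was found in the 5 windows. Over all 32817 windows of 300 bases, 19.6% held the former and 14.7% the latter, so the absence says only that these letters are not in these windows.

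Between vessel beds, the receptor and a ligand moved in opposite directions. Il6st was 3.76-fold higher in bmECs than in mpECs, and Kitl, the stem cell factor that keeps Kit-bearing progenitors alive, was 3.03-fold lower. Cxcl12, Csf1 and Il6 did not pass the test, and Il7 did not pass the filter on low values. Tests were made with limma on log2(FPKM + 1) for genes whose mean over the libraries compared reached 1 FPKM, which 5 of the 6 passed, and a call is a Benjamini-Hochberg adjusted p under 0.05 over all genes tested. Of the 5, 1 was called higher and 1 lower in bmECs, where 23.5% of all 11422 genes tested were called. With 5 genes, 2 calls are no result about the set as a whole. The median log2 fold change was -0.15 over the 5 and -0.00068 over all genes tested.

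**Figure D1:**
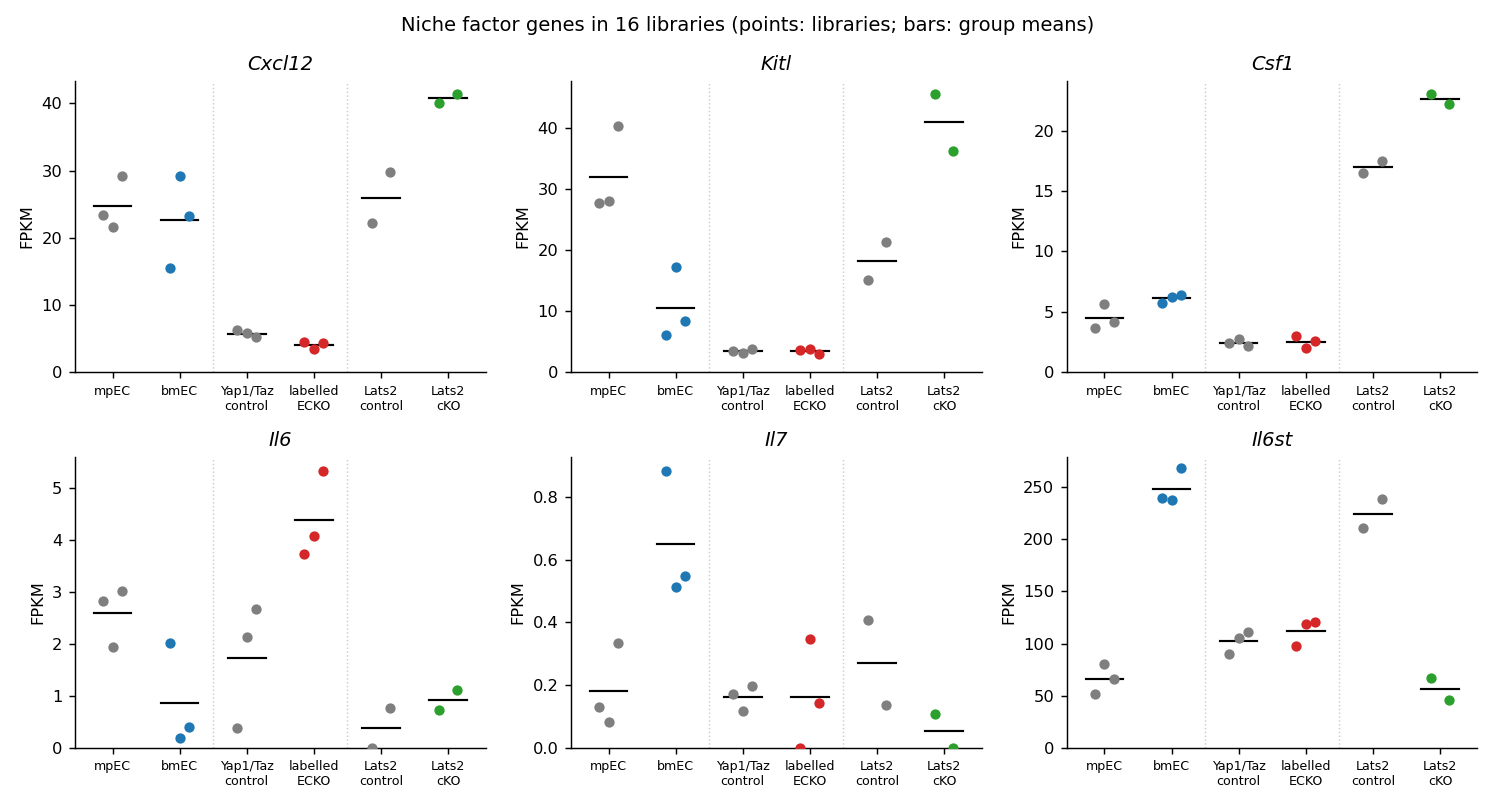
FPKM of the 6 niche factor genes (vertical axes, from 0, scaled per gene) in each of the 16 libraries by group, with a bar at the group mean and dotted lines between tables that were normalized separately. Il6st is high in bmECs (238.1 to 268.2) and Lats2 control libraries (211.0 and 238.4) and low in mpECs (52.0 to 80.4) and Lats2 cKO libraries (45.6 and 67.3), and Kitl shows the opposite order in those tables.

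Il6st was the most abundant of the 6 in every group. In mpECs it was 52.0, 80.4 and 66.2 FPKM and in bmECs 239.7, 238.1 and 268.2 FPKM. The bmEC libraries lay close together and far above the highest mpEC library. Its log2 fold change was 1.91 ± 0.15 (SE, n = 3 and 3, adjusted p = 0.000124), and only 1.34% of all genes tested changed by as much or more. The call held in all 14 alternative fits, with adjusted p from 2.37e-05 to 0.00131. Set against Cdh5 of the same library, Il6st came to 34.99% to 39.6% of the Cdh5 level in mpECs and to 145.3% to 148.7% in bmECs.

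Kitl was 27.8, 28.1 and 40.4 FPKM in mpECs and 6.01, 17.3 and 8.43 FPKM in bmECs. The groups did not overlap, and bmEC replicate 2 stood highest in its group, nearest to the mpECs. Its log2 fold change was -1.61 ± 0.33 (SE, n = 3 and 3, adjusted p = 0.00961), called in all 14 alternative fits (adjusted p from 0.00109 to 0.0392). In mpECs the level of Kitl was above that of Cxcl12 in each library, with a ratio of Kitl to Cxcl12 FPKM of 1.19, 1.30 and 1.38. In bmECs it was below, with ratios of 0.387, 0.593 and 0.362.

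Cxcl12, the chemokine that holds stem cells in marrow through Cxcr4, was 23.3, 21.6 and 29.2 FPKM in mpECs and 15.5, 29.2 and 23.3 FPKM in bmECs. The ranges overlapped almost fully. The log2 fold change was -0.15 (95% interval -0.65 to 0.35, adjusted p = 0.654), which leaves room for a change of either sign, and it turned to 0.086 without bmEC replicate 1. Csf1, the growth factor of macrophages and osteoclasts, was 3.61, 5.60 and 4.13 FPKM in mpECs and 5.75, 6.19 and 6.41 FPKM in bmECs. All bmEC libraries were above all mpEC libraries, but the log2 fold change of 0.40 (95% interval 0.06 to 0.74) missed the threshold (adjusted p = 0.0851) and passed it only without mpEC replicate 2 (adjusted p = 0.0234).

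Il6, an inflammatory cytokine that also drives blood formation, was low. It was 2.83, 1.94 and 3.03 FPKM in mpECs and 2.01, 0.195 and 0.391 FPKM in bmECs, so that bmEC replicate 1 lay within the mpEC range and the other bmEC libraries below it. The log2 fold change of -1.06 ± 0.33 (SE, n = 3 and 3) had an adjusted p of 0.0545. It was called in 3 of 13 alternative fits, with limma-voom on recovered reads (-2.28, adjusted p = 0.0203), with the replicate number as a block (adjusted p = 0.0180) and without bmEC replicate 1 (-1.47, adjusted p = 0.00339). Il7, the factor of early lymphocytes, failed the filter on low values. Its values were 0.131, 0.0810 and 0.333 FPKM in mpECs and 0.884, 0.513 and 0.549 FPKM in bmECs. These groups did not overlap, and in the fit with no filter the log2 fold change was 0.48 with an adjusted p of 0.0619. Counted over the 5 genes tested, the groups did not overlap for 3, Il6st, Kitl and Csf1, against 41.3% of all genes tested.

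The receptors of these ligands were measured in the same cells. Of 7 receptor genes tested, 3 were lower and 1 higher in bmECs. For this list and the further lists of this comparison, the share called over all genes tested was 23.5%. Ackr3, which scavenges Cxcl12, fell from a mean of 4.25 to 1.24 FPKM (log2 fold change -1.20, adjusted p = 0.00503), Cxcr4 from 2.32 to 1.01 FPKM (-0.74, adjusted p = 0.0289) and Kit, the receptor of Kitl, from 7.33 to 4.49 FPKM (-0.58, adjusted p = 0.0346). Il2rg, the chain that Il7r pairs with, was more abundant than the other receptors and rose from 114 to 245 FPKM (1.10, adjusted p = 0.000168). Csf1r, Il6ra and Il7r did not pass the test. Kit, Csf1r, Il7r and Cxcr4 are also known from blood cells.

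More of the gp130 pathway than Il6st alone was higher in bmECs. Of 14 listed genes 11 were tested, with 6 higher and 1 lower (median log2 fold change 0.43), where 23.5% of all genes tested were called. Whether the list as a whole exceeded that share was not tested. Jak1, the kinase bound to gp130, averaged 137 FPKM in mpECs and 383 FPKM in bmECs (1.47, adjusted p = 8.05e-05). The partner receptor of oncostatin M, Osmr, rose from 10.5 to 29.1 FPKM (1.40, adjusted p = 0.000124), and Lifr, which pairs with gp130 for leukemia inhibitory factor, from 21.0 to 47.8 FPKM (1.14, adjusted p = 0.000514). Socs3, the feedback inhibitor that binds gp130, rose from 5.19 to 15.9 FPKM (1.43, adjusted p = 0.0207), and Jak2 and the transcription factor Stat3 by less. The ligand Osm, which is known from blood cells, went the other way, from 6.02 to 1.71 FPKM (-1.37, adjusted p = 0.000509).

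**Figure D2:**
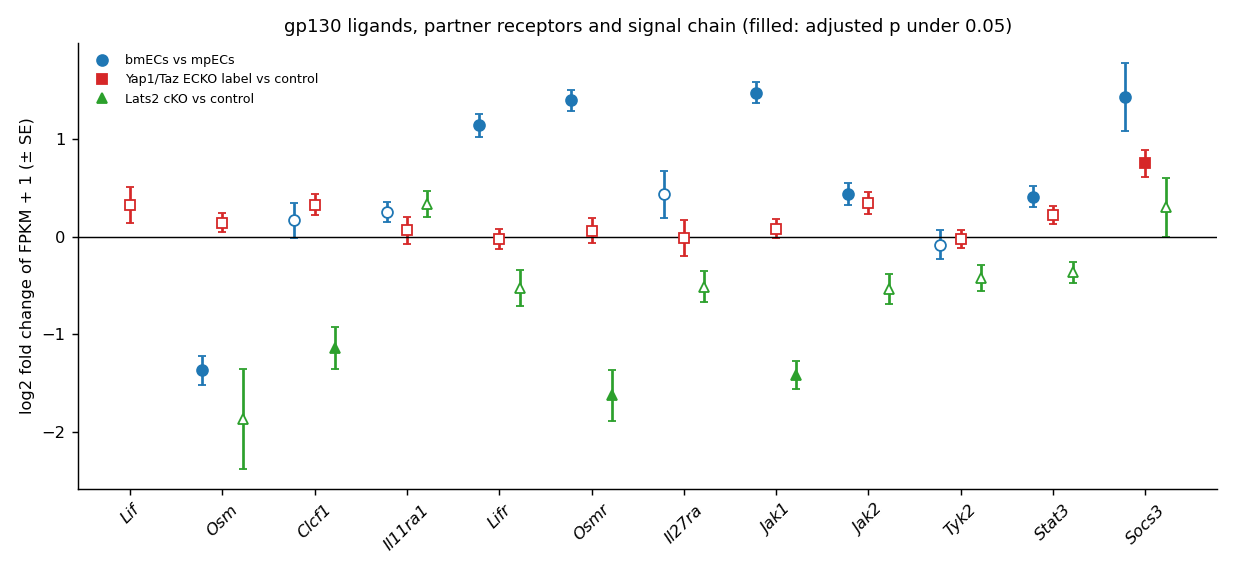
Log2 fold change of FPKM + 1 with its SE (vertical axis) for the tested ligands, partner receptors and signal chain of gp130 in the 3 comparisons, with filled symbols for an adjusted p under 0.05. Osmr and Jak1 are above 0 in bmECs (1.40 and 1.47) and below 0 in Lats2 cKO libraries (-1.63 and -1.42).

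Other niche factors were split, with 4 higher and 3 lower of 16 tested (23.5% of all genes tested were called). The matrix-bound cytokines Ptn and Spp1 were far lower in bmECs, Ptn at 0.488 against 55.0 FPKM (-5.22, adjusted p = 2.58e-06) and Spp1 at 3.98 against 138 FPKM (-4.64, adjusted p = 0.000267), while the adhesion molecules Sele (2.06, adjusted p = 9.29e-05) and Vcam1 (1.82) were higher. Among 9 tested genes that cut or hold the factors, 2 were higher and 4 lower, against the same share over all genes. The gelatinase gene Mmp2 had the largest change of these, at 0.953 against 29.2 FPKM (-3.95, adjusted p = 2.58e-06), and the perlecan gene Hspg2 was also lower (-0.95). Dpp4, which clips Cxcl12, was higher in bmECs (8.10 against 4.13 FPKM, log2 fold change 0.84, adjusted p = 0.00687). Mmp9, which can release Kitl from the membrane, was lower (9.90 against 20.8 FPKM, -0.95, adjusted p = 0.0290).

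Markers of vessel type and of other cells moved along with these genes. Of 10 general EC markers 4 were higher and 3 lower in bmECs, the largest changes being those of Emcn (-0.73), Tie1 (-0.70) and Kdr (0.67). Of the sinusoidal list (Stab1, Stab2, Flt4, Lyve1 and Mrc1), 3 of 4 tested, Mrc1 (1.74), Stab2 (1.73) and Flt4 (1.11), were higher in bmECs and the summed level was 614.1 to 668.2 FPKM against 211.4 to 273.4 in mpECs. Of the 7 arterial markers, 6 were lower, with sums of 33.3 to 47.5 against 145.0 to 174.8 FPKM, led by the connexin genes Gja5 (-2.39, adjusted p = 2e-05) and Gja4 (-2.19) and by Efnb2 (-1.95). In bulk samples, fewer cells of a type cannot be told apart from less RNA per cell. The markers of marrow stromal cells, a known source of Cxcl12 and Kitl, were 3 higher and 1 lower of 7 tested. Their sums overlapped, from 74.5 to 96.4 FPKM in bmECs and from 56.8 to 103.6 in mpECs. Gas6 had the highest mean of the list (38.9 against 30.9 FPKM) and was not called, and single genes moved in opposite directions. Lum was lower in bmECs (0.847 against 18.8 FPKM, -3.25, adjusted p = 0.000886), and Lepr (13.3 against 2.95 FPKM) and Adipoq (19.3 against 6.41 FPKM) were higher. Dcn was at 7.11 against 15.1 FPKM without a call, and Pdgfra and Pdgfrb were under 1 FPKM on average in both groups. Of 7 osteoblast and chondrocyte markers tested 5 were lower in bmECs, with sums of 41.8 to 53.9 against 147.2 to 718.9 FPKM, led by Bglap (-5.53), Col1a1 (-4.99) and Bglap2 (-4.97). The pericyte list had 2 of 4 tested genes higher, Kcnj8 and Abcc9, which made up most of its sums (624.6 to 649.0 against 198.8 to 290.5 FPKM). The other 2 tested were lower on average without a call, Rgs5 (9.37 against 18.2 FPKM) and Acta2 (1.45 against 3.11 FPKM). Cspg4 and Notch3 were near 0. No blood cell marker of 11 was called by limma or limma-voom (4 at an unadjusted p under 0.05). Of 10 genes known to respond to tissue dissociation, Jun and Junb were higher in bmECs, and Jun ranged from 161.2 to 411.3 FPKM there. The part of these cells in the levels of the niche factors was not tested.

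**Figure D3:**
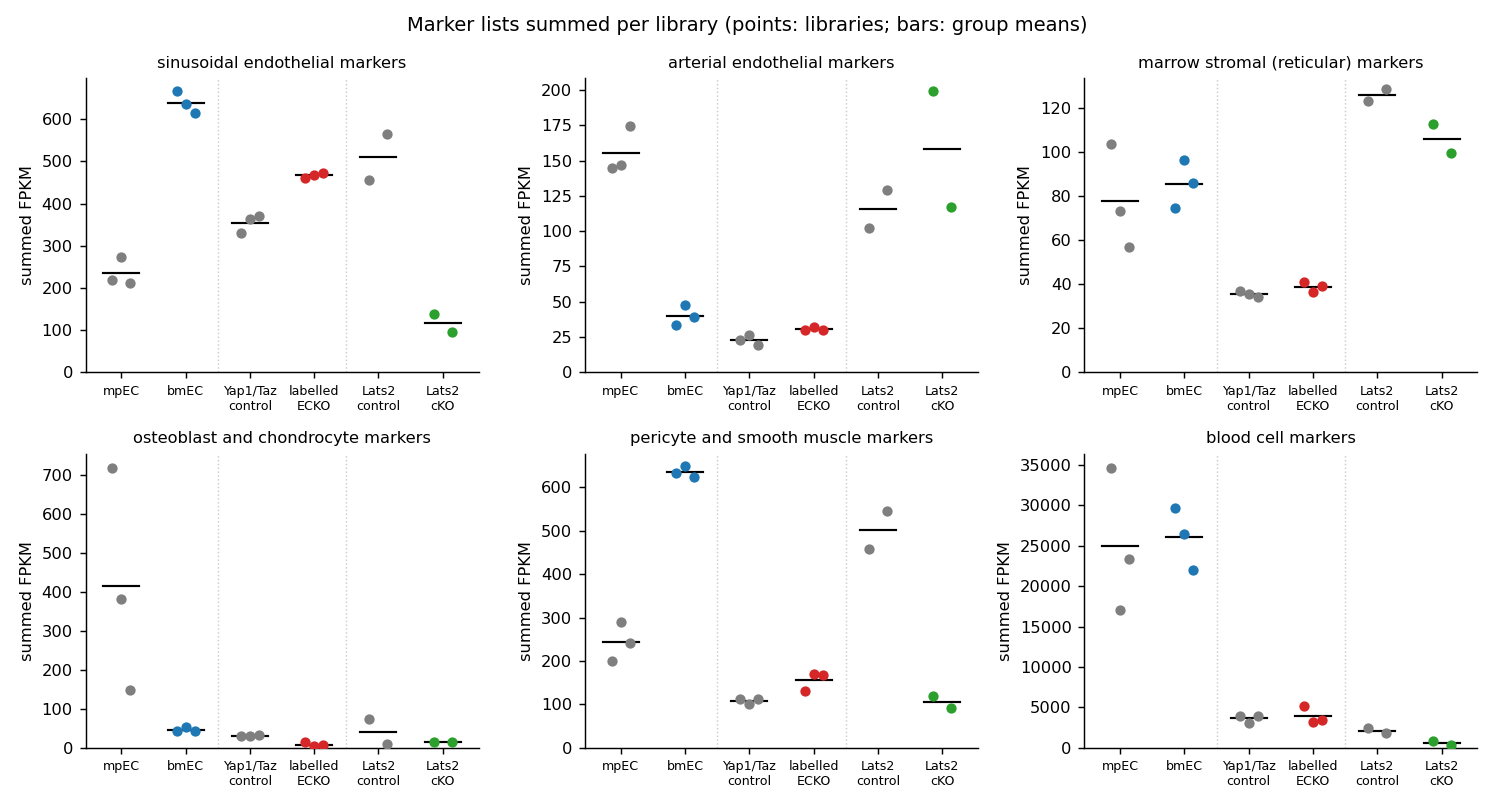
Summed FPKM of 6 marker lists (vertical axes, from 0, scaled per list) in each library by group, with a bar at the group mean. The sinusoidal sums are higher in bmECs and Lats2 control, as is Il6st. They are also higher in ECKO-labelled than in Yap1/Taz control libraries (461.6 to 472.3 against 330.2 to 369.4), where Il6st overlapped. The stromal sums overlap between mpECs (56.8 to 103.6) and bmECs (74.5 to 96.4), although Lepr and Adipoq were higher and Lum was lower in bmECs.

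In the Yap1/Taz libraries, where Wwtr1 was higher under the ECKO label, 0 of 5 niche factors tested were called by limma, and 148 of 11320 genes (1.31%) were called in all. At an unadjusted p under 0.05, limma had 2 of the 5, Cxcl12 and Il6, and limma-voom on recovered reads also called 0. Cxcl12 was 6.24, 5.77 and 5.18 FPKM in control and 4.51, 3.43 and 4.31 FPKM in the libraries labelled ECKO. All ECKO-labelled libraries were below all controls, by a log2 fold change of -0.41 ± 0.13 (SE, n = 3 and 3), with an adjusted p of 0.147. Il6 was 0.388, 2.14 and 2.68 FPKM in control and 3.74, 4.09 and 5.34 FPKM in ECKO-labelled libraries. These also did not overlap, and the log2 fold change of 1.09 ± 0.32 (SE, n = 3 and 3) had an adjusted p of 0.114, from 0.0818 to 0.325 over 13 alternative fits. Without control replicate 1, the lowest library, the log2 fold change was 0.66 (adjusted p = 0.0884). Groups that do not overlap were found for 2 of the 5, Cxcl12 and Il6, and for 23.6% of all genes tested.

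The other factors overlapped between the Yap1/Taz groups. Kitl was 3.51, 3.10 and 3.73 FPKM in control and 3.64, 3.80 and 2.93 FPKM in ECKO-labelled libraries (95% interval of the log2 fold change -0.31 to 0.31). Csf1 was 2.40, 2.71 and 2.18 against 3.01, 1.98 and 2.58 FPKM (-0.32 to 0.38). Il6st was 90.4, 105.1 and 110.7 against 97.3, 118.8 and 120.3 FPKM (-0.13 to 0.40). In all 3 genes the interval included 0. Il7 was at most 0.346 FPKM and was listed at 0 in ECKO-labelled replicate 1. The median log2 fold change was 0.03 over the 5 genes and -0.0047 over all genes tested.

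Of the receptors, 0 of 6 tested were called by limma (4 at an unadjusted p under 0.05, and 1 by limma-voom). Cxcr4 was abundant here, with 177.0 to 235.1 FPKM in control and 261.1 to 313.2 in ECKO-labelled libraries (0.51, adjusted p = 0.0785). In the gp130 pathway Socs3 alone of 12 tested genes passed, with a mean of 40.0 FPKM in control and 68.9 FPKM in the libraries labelled ECKO (0.75, adjusted p = 0.0406). Of the other niche factors the Notch ligand Dll1 alone of 16 was called (10.5 against 5.91 FPKM, 0.74, adjusted p = 0.0469), and of the genes that cut or hold the factors 0 of 9 by limma (4 at an unadjusted p under 0.05, and 1 by limma-voom). Of 10 general EC markers Cldn5 was called (1.09, adjusted p = 0.0117), 8 had an unadjusted p under 0.05 and 3 were called by limma-voom, with summed levels of 737.0 to 864.2 FPKM in ECKO-labelled against 579.6 to 618.4 FPKM in control libraries. Sinusoidal markers Stab1 and Flt4 rose, 2 of 4 tested, with sums of 461.6 to 472.3 against 330.2 to 369.4 FPKM. Osteoblast markers Bglap, Bglap2 and Col1a1 fell, 3 of 5 tested, with sums of 4.86 to 13.9 against 29.2 to 33.8 FPKM. The limma fit called none of the 7 stromal, 6 arterial, 3 pericyte, 12 blood cell or 10 dissociation genes tested, of which 1, 4, 3, 2 and 5 had an unadjusted p under 0.05 and limma-voom called 0, 1, 3, 0 and 3. Pdgfrb was 6.29 FPKM on average in control and 5.76 FPKM in ECKO-labelled libraries. The part of these cells in the niche factor values was not tested. All counts in this comparison rest on few libraries, since 1 gene was called in all without ECKO-labelled replicate 2 and also without replicate 3.

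In the Lats2 libraries the receptor and 2 ligands, Kitl and Cxcl12, moved in opposite directions. Il6st was 3.98-fold lower in cKO than in control libraries, while Kitl was 2.25-fold and Cxcl12 1.57-fold higher. Of 4 genes tested, 2 were called higher and 1 lower, where 21.8% of 12451 genes were called. The median log2 fold change was 0.52 over the 4 and -0.0031 over all genes tested. The groups did not overlap in any of the 4, which with 2 libraries against 2 was the case for 68.2% of all genes tested. The calls depended on single libraries. Without control replicate 1 or without control replicate 2 no gene of the table was called by limma (2724 and 2878 had an unadjusted p under 0.05), and without either cKO library only Il6st of the 4 was called.

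Il6st was 211.0 and 238.4 FPKM in control and 67.3 and 45.6 FPKM in cKO libraries. Both cKO libraries were far below both controls. The log2 fold change was -1.999 ± 0.21 (SE, n = 2 and 2, adjusted p = 0.00915), with 2.41% of all genes tested changing by as much or more. It was called in 10 of 12 alternative fits and stayed between -2.28 and -1.72 in all of them, but the adjusted p was 0.131 without control replicate 1 and 0.113 without control replicate 2. Il6st came to 92.1% and 89.2% of the Cdh5 level in control and to 24.4% and 16.5% in cKO libraries.

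Kitl was 15.2 and 21.3 FPKM in control and 45.6 and 36.3 FPKM in cKO libraries. It was higher in both cKO libraries, with a log2 fold change of 1.14 ± 0.21 (SE, n = 2 and 2, adjusted p = 0.0220). It was called in 7 of 12 alternative fits, and leaving out any 1 library gave adjusted p from 0.0651 to 0.157. Cxcl12 was 22.2 and 29.8 FPKM in control and 40.1 and 41.4 FPKM in cKO libraries. Its log2 fold change was 0.64 ± 0.17 (SE, n = 2 and 2), and its adjusted p of 0.04999 lay on the threshold itself. The call held in only 4 of 12 alternative fits (adjusted p from 0.0245 to 0.259).

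Csf1 was 16.5 and 17.5 FPKM in control and 23.1 and 22.2 FPKM in cKO libraries. The cKO libraries were the higher ones, by a log2 fold change of 0.39 (95% interval 0.10 to 0.69), but the gene was not called (adjusted p = 0.0691) in this or any of 12 alternative fits. Il6 and Il7 were too low to be tested. Il6 was listed at 0 and was 0.773 FPKM in control and 0.731 and 1.11 FPKM in cKO libraries. Il7 was 0.406 and 0.136 FPKM in control, and in cKO libraries it was 0.107 FPKM and listed at 0.

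**Figure D4:**
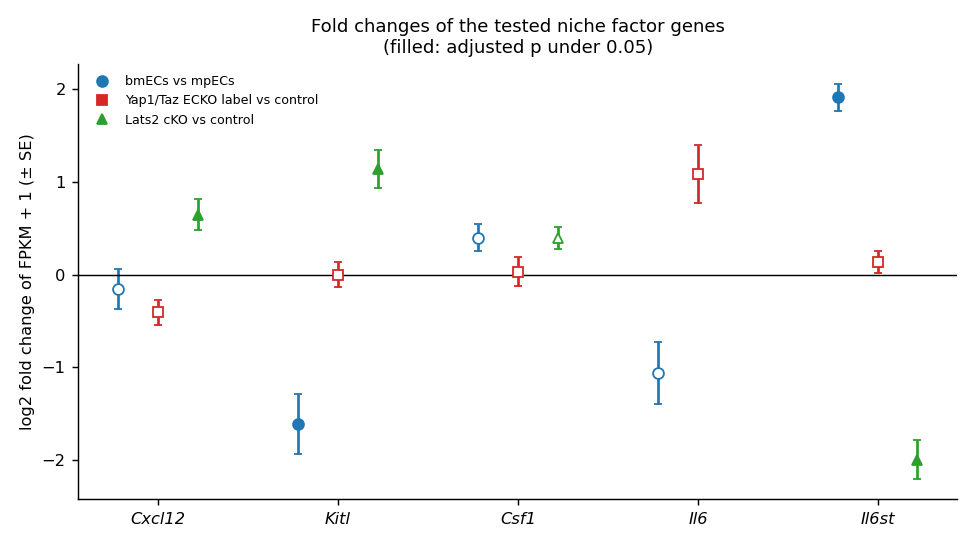
Log2 fold change of FPKM + 1 with its SE (vertical axis) for the tested niche factors in the 3 comparisons, with filled symbols for an adjusted p under 0.05. Il6st is at 1.91 in bmECs and -1.999 in Lats2 cKO libraries, and Kitl at -1.61 and 1.14.

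Receptors of Cxcl12 and Kitl rose in the Lats2 cKO libraries. Of 6 tested, 3 were higher and 1 lower (11.8% and 9.98% of all genes tested). Cxcr4 rose from a mean of 5.10 to 30.9 FPKM (2.27, adjusted p = 0.0197), Ackr3 from 6.29 to 34.3 FPKM (2.20, adjusted p = 0.0239) and Kit from 12.7 to 32.0 FPKM (1.30, adjusted p = 0.0204), while Il2rg fell from 120 to 74.2 FPKM (-0.68, adjusted p = 0.0203). In the gp130 list limma called 3 of 11 tested genes lower and 0 higher (9.98% and 11.8% of all genes tested). The median log2 fold change was -0.52. At an unadjusted p under 0.05 there were 10, of which Il11ra1 was higher (0.34), and limma-voom called 5. The 3 called lower by limma were Jak1, from 219 to 81.8 FPKM (-1.42, adjusted p = 0.00913), Osmr, from 15.6 to 4.51 FPKM (-1.63, adjusted p = 0.0172), and the ligand gene Clcf1, from 2.78 to 0.717 FPKM (-1.14, adjusted p = 0.0230). Socs3 and Stat3 were not called.

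Of other niche factors 4 were higher and 4 lower of 16 tested (11.8% and 9.98% of all genes tested). Spp1 (2.68), Bmp4 (2.41), Bmp6 (2.38) and Jag2 (0.72) rose, and Sele (-2.84), Vcam1 (-2.83), the platelet chemokine gene Pf4 (-1.80) and Selp (-1.71) fell. Hspg2, whose product can hold growth factors in the matrix, was the only gene called of 10 that cut or hold the factors (1.19, adjusted p = 0.00892).

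Sinusoidal markers fell along with Il6st. All 4 that passed the filter were lower, Mrc1 (-2.95), Stab2 (-2.90), Flt4 (-1.81) and Stab1 (-1.04), with summed levels of 94.1 to 138.4 FPKM in cKO against 456.9 to 564.8 FPKM in control libraries. The fifth, Lyve1, was under the filter and went the other way, at 1.49 FPKM on average in cKO against 0.0322 FPKM in control libraries, 1 of them listed at 0 (1.26 with no filter, adjusted p = 0.0427). Of 10 general EC markers Tek (-1.35) and Kdr (-0.95) fell and Pecam1 (0.85) rose. Of 7 arterial markers 1 was higher, Sox17 (0.71, adjusted p = 0.0311), with sums of 116.8 to 199.2 against 101.9 to 128.9 FPKM. None of 7 stromal markers was called by limma (3 at an unadjusted p under 0.05, and 2 by limma-voom), and the sums were 99.4 to 112.7 FPKM in cKO and 123.1 to 128.6 FPKM in control libraries. Pdgfrb averaged 2.66 FPKM in cKO and 0.401 FPKM in control libraries (adjusted p = 0.0501), while Adipoq was at 1.85 and 6.88 FPKM (adjusted p = 0.0736). Of 4 tested pericyte and smooth muscle markers Kcnj8 and Abcc9 fell and Rgs5 and Acta2 rose, and the summed level was 91.9 to 120.4 against 459.0 to 546.7 FPKM. Osteoblast markers gave no call among 5 by limma, by limma-voom or at an unadjusted p under 0.05. Of 10 dissociation genes Atf3 rose and Hspa1a fell. Of 11 blood cell markers tested 3 fell by limma, Cd79a and S100a8 among them, 9 were called by limma-voom and 10 had an unadjusted p under 0.05. Their median log2 fold change was -1.83, and the summed level of the list was 373.9 to 877.6 FPKM in cKO against 1776 to 2414 FPKM in control libraries. The part of these cells in the niche factor values was not tested.

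Because Il6st and Kitl were measured in the same libraries, their ratio does not depend on the scaling of a library. Il6st FPKM over Kitl FPKM was 1.87, 2.86 and 1.64 in mpECs and 39.9, 13.8 and 31.8 in bmECs. It was 13.9 and 11.2 in Lats2 control and 1.47 and 1.25 in Lats2 cKO libraries. No library of the lower group reached the higher group in either table. That outcome was fixed beforehand, since these genes were paired for moving in opposite directions and neither overlapped between the groups. The ratio restates their separate values and is no further result. In the Yap1/Taz libraries the ratio was 25.8, 33.9 and 29.7 in control and 26.7, 31.3 and 41.1 in the libraries labelled ECKO, and these ranges overlapped.

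**Figure D5:**
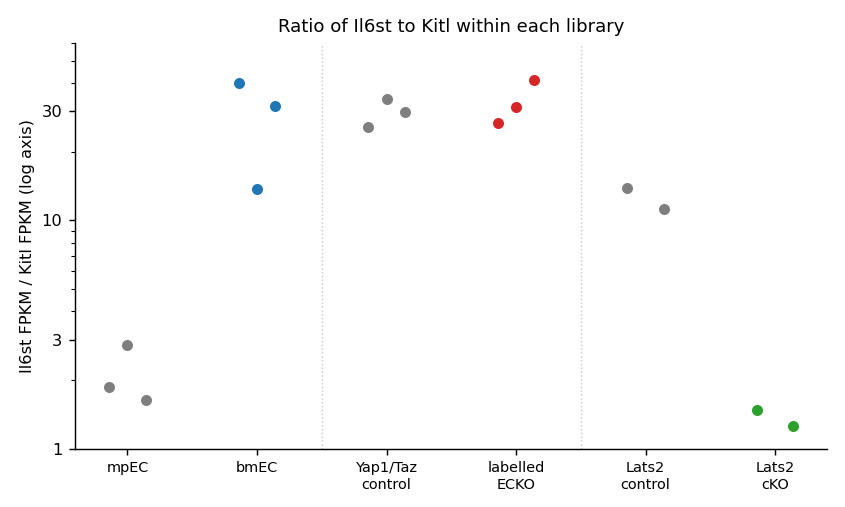
Ratio of Il6st FPKM to Kitl FPKM within each library (vertical axis, logarithmic) by group, with dotted lines between tables that were normalized separately. The mpEC (1.64 to 2.86) and Lats2 cKO libraries (1.25 and 1.47) have the lowest ratios.

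The tables were normalized separately, so levels across them are set side by side only. The order of the 6 genes by mean FPKM was Il6st, Kitl, Cxcl12, Csf1, Il6 and Il7 in mpECs and Lats2 cKO libraries. In Lats2 cKO libraries Kitl (41.0 ± 6.57 FPKM, SD, n = 2) and Cxcl12 (40.7 ± 0.967 FPKM, SD, n = 2) did not differ beyond their spread, and Csf1 (22.6 ± 0.624 FPKM, SD, n = 2) was apart from both. In the 4 other groups Cxcl12 was placed above Kitl. The libraries overlapped between these genes in bmECs (22.7 ± 6.86 against 10.6 ± 5.95 FPKM, SD, n = 3) but not in Yap1/Taz control (5.73 ± 0.531 against 3.45 ± 0.319 FPKM, SD, n = 3) or Lats2 control libraries (25.96 ± 5.36 against 18.2 ± 4.33 FPKM, SD, n = 2). In Lats2 control libraries Kitl and Csf1 (17.0 ± 0.739 FPKM, SD, n = 2) overlapped. Il6 was placed below Csf1 in every group except the libraries labelled ECKO, where it came next to Il6st with 4.39 ± 0.842 FPKM (SD, n = 3), beside Cxcl12 with 4.08 ± 0.571 FPKM (SD, n = 3), values that overlapped. In mpECs the ranges of Kitl and Cxcl12 overlapped. Il7 was the lowest of the 6 in every group, with 0.649 ± 0.205 FPKM (SD, n = 3) in bmECs as its highest mean.

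Genes of like pattern were sought over the 16 libraries, as Pearson's r of log2(FPKM + 1) centred on the mean of each table, among 9069 genes whose mean reached 1 FPKM in all 3 tables. These r are descriptions across libraries that share the group structure of the study. For Il6st they were Jak1 (r = 0.986), the kinase of its own pathway, Col6a3 (0.980), which encodes a chain of collagen VI, and Lipg (0.980), which encodes endothelial lipase. Jak1 was 125.4 to 155.0 FPKM in mpECs and 348.6 to 402.5 FPKM in bmECs, and 217.0 and 221.0 FPKM in Lats2 control against 72.8 and 90.9 FPKM in cKO libraries. For Kitl they were Plcb1 (0.963), a phospholipase gene, 4930578C19Rik (0.958) and Jam2 (0.946), which encodes a junction adhesion molecule. Jam2, at 14.75 FPKM in its highest bmEC library, averaged 8.47 FPKM in bmECs and 18.4 FPKM in mpECs. The genes most like Csf1 were Il11ra1 (0.857), a partner receptor of gp130, Tinagl1 (0.850) and Fam174b (0.820), and those most like Cxcl12 were Dnajc13 (0.886), Mphosph8 (0.832) and Ptp4a3 (0.822), so no gene tracked these ligands as closely as Jak1 tracked Il6st. Il6 and Il7 were below 1 FPKM in at least 1 table and were not compared.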

How the data were processed

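Bulk RNA-seq libraries of sorted bone ECs were used, 16 in all. Per the methods and the submitters' processing notes, paired-end reads were aligned by the authors with TopHat on GRCm38 (mm10), HTSeq 0.6.1 gave counts for each gene, and DESeq2 served for their own tests. The deposited values are FPKM, and neither the step from counts to FPKM nor the strand setting of counting is given in the sources used here. Groups were taken from the labels, each column and file had a sample, and no replicate pair differed as little as counting noise (chi-square per degree of freedom 3.2 to 29.3).

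From the FPKM values, log2(FPKM + 1) was tested with limma 3.58.1 in R 4.3.3 (1 term for group, mean-variance trend, two-sided, Benjamini-Hochberg over genes whose mean reached 1 FPKM), separately for each of 3 comparisons. A fold change on this scale understates that of low genes. Linear folds are ratios of mean FPKM. Reads were recovered from the FPKM values with GENCODE M21 exon lengths, and 62.4% to 70.0% of low values per library lay within 0.02 of a whole read. In simulated data, changes of 2 on the log2 scale were recovered in 100% of genes for the mpEC and bmEC libraries (10816 genes), 100% for Yap1/Taz (11288 genes) and 96% for Lats2 (11731 genes), and changes of 1 in 72%, 80% and 18%. Each simulated set had 100 genes changed at each size and the same relative spread for all genes. That spread was a set value and not an estimate from these libraries, so the rates need not hold for genes that vary more. False calls there were 25, 13 and 29. Set against the changed genes recovered, they made up more of the calls than the adjusted p threshold allows for, in each of the 3 comparisons. Calls near the threshold, such as that of Cxcl12 in the Lats2 libraries, are to be read with that in mind. Alternatives were another pseudocount, other filters, scaling, quantile normalization, no trend, limma-voom on recovered reads, the replicate number as a block, stricter thresholds and leaving out each library. All 6 genes were named, with the up to 3 largest called changes of each other list and genes on which a result turns. Exceptions are the hypoxia and Yap1/Taz target lists, given as counts with only Vegfa and the unmatched Ctgf and Cyr61 named, and the blood cell list. A few more genes of a list were named after their values were seen, to complete a count. The genes and lists were chosen with earlier results of these data known. In the Lats2 table, 2 gene names that a spreadsheet had turned into dates were dropped. The result of a single blood cell marker is not reported here.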

Additional observations from a re-analysis of the deposited data

How the results depend on the processing

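The number of niche factors called kept within 1.5 times of its value in the mpEC and bmEC libraries (2 called, 2 or 3 under the alternatives) and stayed at 0 in the Yap1/Taz libraries. In the Lats2 libraries it fell from 3 to 1 with no filter on low values and at the stricter thresholds (adjusted p under 0.01 with a log2 change beyond 0.5 either way), and to between 0 and 1 when a library was left out, a fit in which the lone library of a group is assumed to vary like the other group. Direction turned only in values near 0. Cxcl12 in bmECs against mpECs ranged from -0.35 to 0.086 when a library was left out, and between the Yap1/Taz groups Kitl ranged from -0.056 (also -0.055 and -0.031) to 0.089 and Csf1 from -0.068 (also -0.022) to 0.15. Of the single-gene results under alternatives, 158 kept direction and side of the threshold, 15 lost the call, 4 gained it and 6 changed sign.

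The count over all genes moved by more than 1.5 times in the Lats2 libraries, from 2711 to 1389 with no filter, to 931 without cKO replicate 2 and to 0 by limma without control replicate 1 or without control replicate 2 (2724 and 2878 at an unadjusted p under 0.05). In the Yap1/Taz libraries it moved from 148 to 406 with limma-voom, 45 with the replicate block, 17 with no trend, 1 with no filter, and 1 to 293 when a library was left out (20 without control replicate 2, 14 without control replicate 3, 293 without ECKO-labelled replicate 1, 1 without ECKO-labelled replicate 2 and 1 without replicate 3). At the stricter thresholds it was 1335, 1 and 257 in the mpEC and bmEC, Yap1/Taz and Lats2 libraries, against 2682, 148 and 2711. The causes were not tested. Whether same-numbered libraries were paired is not known. They deviated together with correlations of 0.31, 0.09 and 0.10 (mpEC and bmEC), -0.18, -0.12 and -0.16 (Yap1/Taz) and 0.07 and 0.07 (Lats2). Differently numbered libraries gave -0.21 to 0.12 (mpEC and bmEC), -0.15 to 0.24 (Yap1/Taz) and -0.07 (Lats2). With so few libraries these values do not settle a pairing of mpEC and bmEC libraries. With the replicate block 3, 0 and 3 niche factors were called against 2, 0 and 3, since Il6 joined in bmECs against mpECs (adjusted p = 0.0180), and no other call changed. In simulated data with 2 libraries a group, a change of 1 on the log2 scale was recovered in 18% of genes. That simulation changed far fewer genes than the 2711 called in the Lats2 libraries, so this rate need not hold there. At under 1 FPKM, Il7, and Il6 in the Lats2 libraries, could not be tested.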
